A study of Mus musculus with 145 samples.

Results

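RPG3 is 1 of the classes of reprogrammed cells that arose when mouse spermatogonial stem cells (SSCs, the unipotent stem cells that sustain spermatogenesis) were kept in culture, with pluripotency genes high in it and also in RPG2 and RPG4. The 261 RPG3 cells were those given the cluster name RPG3 in the deposited annotation, out of 4464 annotated single cells, of which 4339 belonged to the original culture condition. The cultures came from early postnatal males of B6D2F1 strain (C57BL/6 females crossed with DBA/2 males), the mothers carrying an Oct4-EGFP reporter, and the SSCs were grown on feeders of mitomycin C-treated embryonic fibroblasts in a StemPro-34-based medium with EGF, bFGF, GDNF and ESGRO (LIF). No compound was added in this condition, so all classes compared here share strain, reporter, feeder and medium. Cells of SSC-like and pluripotent-like colonies were picked by mouth pipette on days 0 to 27 and sequenced by modified STRT-seq, a method that tags each transcript with a unique molecular identifier (UMI). The classes compared with RPG3 were SSC1-4 (4 SSC clusters pooled, 2265 cells), RPG1 (333 cells, a reprogrammed class still high in SSC markers) and, for single genes, RPG2 (47 cells) and RPG4 (33 cells).

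Pluripotent cells of the mouse epiblast are held in their state by a core network around Pou5f1 (the gene of Oct4), Sox2 and Nanog. Before implantation this network works together with naive factors such as Esrrb, Klf2, Klf4 and Zfp42. Around implantation the epiblast passes through a formative phase in which Otx2, Fgf5 and the de novo DNA methyltransferases come up and naive factors go down. Germ cells of the male line keep some pluripotency genes but depend on their own regulators, among them Zbtb16 (PLZF), Dazl and Dmrt1, and on GDNF signalling through Ret and Gfra1.

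RPG3 cells came from 8 of 46 libraries, each a sample of 1 culture day. On day 12 they were 7 of 94 cells in replicate 2 (7.45%, exact 95% interval 3.05 to 14.7). In that library 78 of the 94 cells were of classes other than SSC1-4 and RPG1 to RPG4, and RPG3 made up 43.8% of the other 16. On day 18 they were 58 of 94 cells in replicate 3 (61.7%, 51.1 to 71.5) and 65 of 95 in replicate 5 (68.4%, 58.1 to 77.6). These were the largest shares of any library over all annotated cells and over SSC and RPG cells alone. On day 20 the shares were 31.9% (29 of 91 cells, 22.5 to 42.5) in replicate 1, 27.4% (26 of 95, 18.7 to 37.5) in replicate 2 and 10.5% (10 of 95, 5.16 to 18.5) in replicate 8. On day 23 they were 36.8% (35 of 95, 27.2 to 47.4) in replicate 1 and 32.6% (31 of 95, 23.4 to 43.0) in replicate 2. Over SSC and RPG cells alone the lowest share was that of day 20 replicate 8, at 11.1%. No RPG3 cell was annotated in the other 38 libraries, which include every library of days 0, 8, 10, 14, 16 and 27, and a count of 0 allows a share of up to 3.13% to 3.45% in each. Cells were picked by hand, so a share describes the cells collected and not the dish. Of the libraries that held RPG3 cells, those of days 12 and 18 belonged to batch B2 (130 RPG3 cells) and those of days 20 and 23 to batch B1 (131 cells), as the annotation gives them, so batch and day cannot be told apart within RPG3. Days 12 and 18 also had B1 libraries, in which no RPG3 cell was annotated. None was annotated either in the B2 libraries of day 18 replicates 2 and 4 or in those of days 14 and 16.

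**Figure D1:**
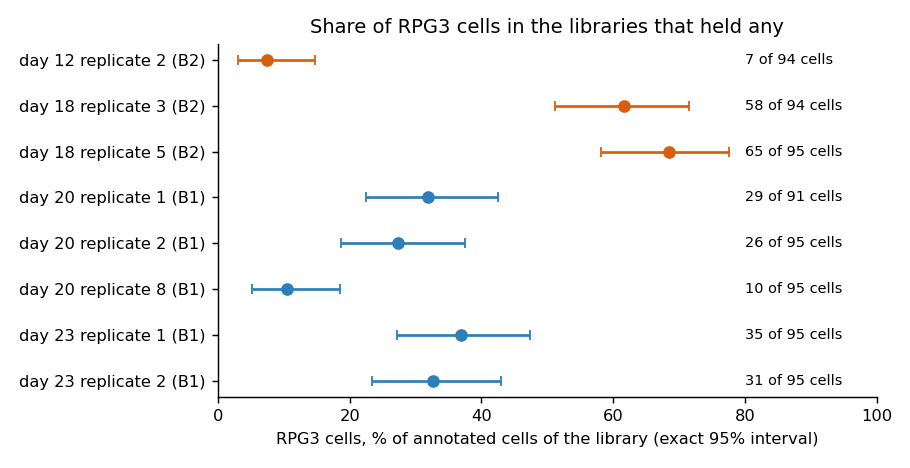
RPG3 cells as a percent of the annotated cells (horizontal axis) in the 8 libraries that held any (vertical axis), with points for the share, bars for exact 95% binomial intervals and colours for batch B1 (blue) and B2 (orange). The shares run from 7.45% on day 12 (43.8% of SSC and RPG cells alone) to 68.4% on day 18, and the intervals of both day 18 libraries lie above those of all others.

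A RPG3 cell held a median of 285699 UMIs (4990 to 744162) from a median of 8576 genes, against medians of 248474 UMIs in SSC1-4 and 238901 in RPG1. Summed per library, RPG3 held 1570976 to 17474953 UMIs. The well barcodes are reused between libraries (94 distinct in RPG3, 77 of them in more than 1 library), and no pair of cells had identical counts. SSC1-4 sums came from 36 libraries and RPG1 sums from 7. RPG1 shared 7 libraries with RPG3, whereas SSC1-4 shared only 2, so for SSC1-4 the class and the library largely overlap and cannot be told apart. Library values below are CPM, a gene's UMIs in a library's summed cells scaled by the total UMIs of that sum after TMM adjustment, which corrects totals for differences in RNA composition. The TMM factors were 0.805 to 0.968 in RPG3, 0.875 to 1.16 in SSC1-4 and 0.965 to 1.08 in RPG1, so RPG3 levels are higher on this scale than by total UMIs alone. Since the annotation was cut from these same transcriptomes, differences of RPG3 from SSC1-4 and RPG1 describe the class and are not tests of it.

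The 5 genes that mark RPG3 were above every SSC1-4 and RPG1 library in all 8 RPG3 libraries, and most of them were also high in RPG2 and RPG4. In RPG2 (3 libraries) L1td1 at 385 to 482 CPM, Tet1 at 342 to 410 and Utf1 at 530 to 743 overlapped RPG3. In RPG4 (2 libraries) they stood at 289 to 390, 212 to 245 and 407 to 455 CPM. Otx2 (chr14:48657677-48673819, minus strand, GRCm38) encodes a homeodomain factor of the epiblast and the anterior brain. It stood at 144 CPM on day 12, at 243 and 174 on day 18, at 225, 204 and 181 on day 20 and at 364 and 309 on day 23. In SSC1-4 it ranged from 0 to 5.57 CPM and in RPG1 from 3.78 to 12, so no library overlapped, and RPG3 was higher by 8.91 ± 0.47 (log2 ± SE) than SSC1-4 and by 4.97 ± 0.28 than RPG1. L1td1 (chr4:98726734-98738480, plus strand), which encodes an RNA-binding protein derived from a LINE-1 element, was found at 611 CPM on day 12, at 561 and 780 on day 18, at 461, 546 and 496 on day 20 and at 465 and 384 on day 23. The highest of all SSC1-4 and RPG1 libraries held 62.2 CPM of it. The dioxygenase gene Tet1 (chr10:62804570-62908996, minus strand), which starts the removal of DNA methylation, measured 389 CPM on day 12, 514 and 550 on day 18, 344, 482 and 490 on day 20 and 409 and 362 on day 23, against 0 to 21.3 in SSC1-4 and 12.1 to 34.7 in RPG1.

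Dppa2 (chr16:48303908-48319723, plus strand), a chromatin factor that primes early embryonic genes, ranged from 173 to 290 CPM with a median of 227 in RPG3, from 0 to 24.6 in SSC1-4 and from 10.3 to 23 in RPG1. Utf1 (chr7:139943789-139945112, plus strand), a chromatin-bound regulator of embryonic stem cells, ranged from 597 to 996 CPM, with 1.21 to 153 in SSC1-4 and 66.5 to 172 in RPG1. Each of the 5 markers was higher in RPG3 than in RPG1 in 7 of 7 shared libraries. For comparison, library ranges without overlap were found in the higher direction for 5.01% of all genes against SSC1-4 and 10.9% against RPG1, and in the lower direction for 2.42% and 9.7%. By total UMIs these were 4.1% and 8.32% higher and 3.15% and 13.4% lower, and the ranges of the 5 markers and of the 3 SSC regulators described next still did not overlap. The 5 genes summed to 1932 to 2789 CPM in RPG3, to 14.7 to 183 in SSC1-4 and to 109 to 288 in RPG1.

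The SSC regulators stood the other way round. Zbtb16, a transcriptional repressor needed for SSC self-renewal, ranged from 2.08 to 14.1 CPM in RPG3 and from 69.7 to 264 in SSC1-4. Dazl, an RNA-binding protein of germ cells, was at 69.0 to 166 CPM against 525 to 1204, and Dmrt1, a transcription factor that maintains male germ cells, at 7.36 to 38.7 against 79.2 to 425. None of these ranges overlapped, and none overlapped that of RPG1. The differences from SSC1-4 were -4.45 ± 0.27, -2.79 ± 0.16 and -3.51 ± 0.25 on the log2 scale. RPG3 was lower than RPG1 for each of the 3 genes in all 7 shared libraries.

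**Figure D2:**
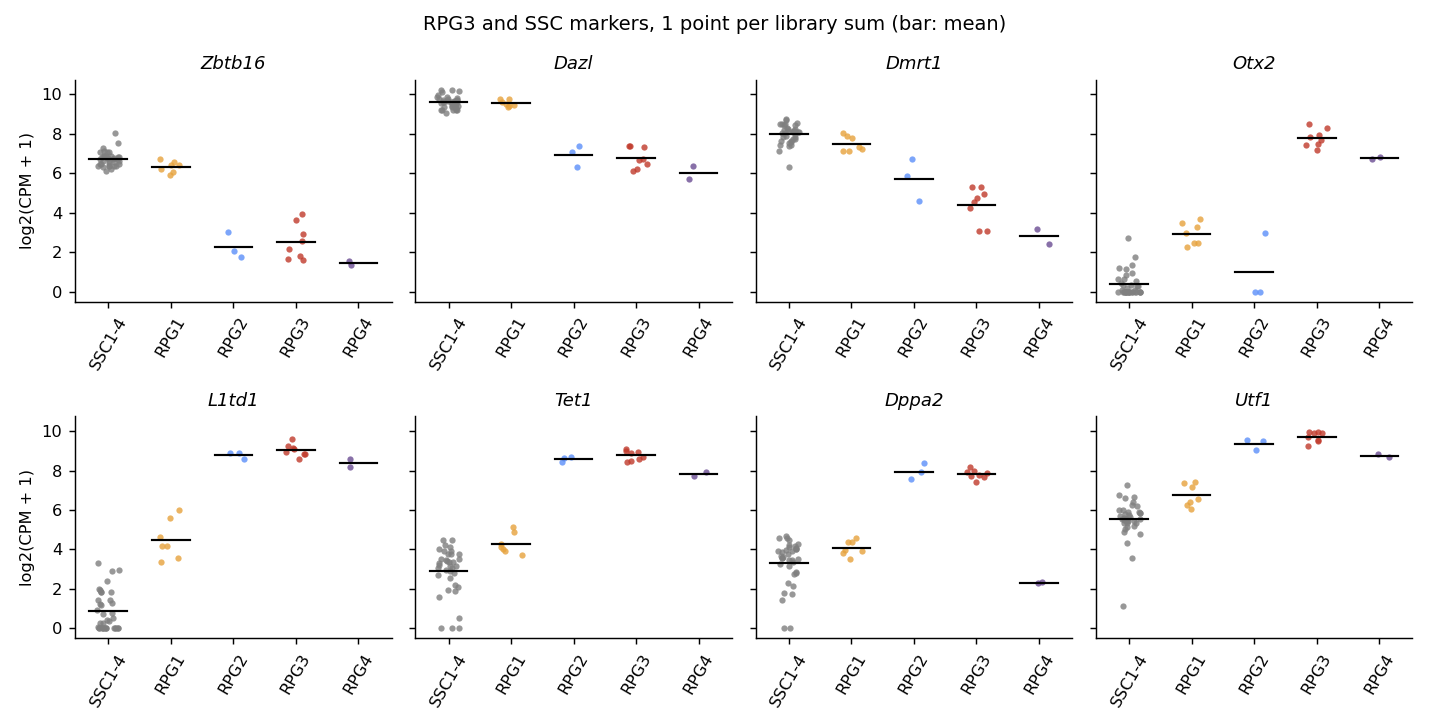
Level of the 3 SSC markers and the 5 RPG3 markers as log2(CPM + 1) on the vertical axis, with 1 point per library sum for SSC1-4, RPG1, RPG2, RPG3 and RPG4 and a bar at each class mean. Otx2, L1td1, Tet1, Dppa2 and Utf1 lie above every SSC1-4 and RPG1 library in RPG3, and Zbtb16, Dazl and Dmrt1 below them.

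The 5 markers were also found cell by cell. To compare cells of unequal depth, each was thinned to 50000 UMIs, which left 254 RPG3 cells and left out 7. A UMI of Tet1 and of Utf1 was found in 100% of them, of L1td1 in 99.6%, of Dppa2 in 97.2% and of Otx2 in 87.8% (exact 95% interval 83.1 to 91.6). By library the share of RPG3 cells with a UMI of Otx2 ran from 74.6% to 97.1%. Free RNA can give such UMIs, and SSC1-4 cells can also express a gene at a low level, so both sets of SSC1-4 cells are given. Among 45 SSC1-4 cells of the libraries that also held RPG3 cells the share was 17.8% for Otx2, 31.1% for L1td1, 48.9% for Tet1, 37.8% for Dppa2 and 91.1% for Utf1. A UMI of Utf1 alone thus hardly set a cell apart at this depth. Among 1933 SSC1-4 cells of libraries without RPG2, RPG3 or RPG4 cells, 5 of which held 1 or 2 RPG1 cells and many of which held cells of other classes, the shares were 1.24%, 2.74%, 17.2%, 26.1% and 58.3%. The median depth before thinning was 287300 UMIs in RPG3, 319100 in the first and 261700 in the second of these sets.

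All 5 markers were found in 217 of 254 RPG3 cells and at least 4 in 252 (99.2%). At least 4 were also found in 40 of 45 RPG2 cells (88.9%) and 24 of 33 RPG4 cells (72.7%), whereas all 5 were found in 2 RPG2 cells (4.44%) and 3 RPG4 cells (9.09%) against 85.4% of RPG3 cells. At least 4 were found in 64 of 312 RPG1 cells (20.5%), in 4 of 45 SSC1-4 cells of the RPG3 libraries (8.89%) and in 7 of 1933 of the libraries without RPG2, RPG3 or RPG4 cells (0.362%).

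Summed by library, Otx2 was the marker whose SSC1-4 level was highest in the 2 libraries shared with RPG3, at 2.39 to 5.57 CPM against at most 1.58 in the 31 libraries without RPG2, RPG3 or RPG4 cells. L1td1 was at 6.56 to 8.93 CPM against at most 2.96 in those 31, but 1 of the other 3 SSC1-4 libraries reached 6.68. For the other markers the shared libraries lay within the range of the 31, with Tet1 at 12.7 to 16.5 CPM (at most 21.3), Dppa2 at 15.4 to 22.9 (at most 24.6) and Utf1 at 101 to 106 (at most 153). The part of free RNA in these values was not tested. Against the 31 libraries alone, 1783 genes were higher and 2810 lower in RPG3, close to the counts with all 36 libraries given below.

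SSC markers were still counted in single RPG3 cells, and whether free RNA gave these UMIs was not tested. After thinning, Zbtb16 was found in 14.6% of RPG3 cells (10.5 to 19.5) and in 88.9% of SSC1-4 cells of the RPG3 libraries. The interval covers counting error only, and by library the RPG3 share ran from 4.76% to 50%. Dmrt1 was found in 50.8% against 97.8%, with 30.8% to 80% by RPG3 library. These shares moved with depth, and in RPG3 they were 7.72% and 25.5% when thinned to 20000 UMIs and 56.7% and 86.2% unthinned. Dazl was found in 95.7% of RPG3 cells although its CPM was lower than in every SSC1-4 library. A UMI of all 3 SSC markers was found in 21 of 254 RPG3 cells (8.27%).

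Across all genes, 1782 of 16392 tested (10.9%) were higher and 2852 (17.4%) lower in RPG3 than in SSC1-4 (28.3% in either direction), at an adjusted p under 0.01 and a fold past 1 on the natural-log scale. Against RPG1, 1281 of 13419 genes (9.55%) were higher and 1509 (11.2%) lower (20.8% in either direction). The balance of calls differed between fits. With the library as a replicate block in the 2 shared libraries 983 genes were higher and 760 lower (56.4% of calls higher against 38.5%), and with batch B2 alone 56.0% of calls were higher. Against RPG1, 45.9% of calls were higher with all libraries and 62.0% with B2 alone. Library number, batch and day changed together in these fits, and the fit of the 2 shared libraries also had the block added. With library sizes by total UMIs, an alternative added after the data had been seen, 30.8% of calls were higher against SSC1-4 and 37.1% against RPG1. The shares over all libraries are the background for the gene groups that follow. The median gene differed from SSC1-4 by -0.15 on the log2 scale and from RPG1 by less than 0.01, so group medians against SSC1-4 are to be read relative to that shift. By total UMIs the median gene differed by -0.375 and -0.197.

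Core pluripotency genes were higher almost as a whole, with 16 of 20 higher and 0 lower in RPG3 against both SSC1-4 and RPG1. Their median log2 difference was 3.89 from SSC1-4 and 2.80 from RPG1, and their summed level was 5762 to 8353 CPM against 632.6 to 1206 and 954.1 to 1717. Nanog, which stabilises self-renewal, read 231 CPM on day 12, 142 and 250 on day 18, 210, 178 and 222 on day 20 and 199 and 226 on day 23. SSC1-4 ranged from 0 to 23.4 and RPG1 from 6.90 to 28.7 CPM, below every RPG3 library. Sox2, the partner of Oct4 on DNA, was at 346 CPM on day 12, at 270 and 359 on day 18, at 227, 336 and 299 on day 20 and at 311 and 264 on day 23. It was lower in all SSC1-4 (0 to 95.4) and RPG1 libraries (26.4 to 168). RPG3 exceeded SSC1-4 by 6.62 ± 0.47 for Nanog and by 4.02 ± 0.32 for Sox2 on the log2 scale.

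Pou5f1 itself was measured at a low level, with 19 to 86.7 CPM in RPG3 (86.7 on day 12, 19 to 56.4 in the other libraries), 0 to 32.8 in SSC1-4 and 2.22 to 7.94 in RPG1. RPG3 and SSC1-4 libraries overlapped for it, and a UMI was found in 53.9% of RPG3 cells thinned to 50000 UMIs, 29.3% at 20000 and 84.7% unthinned. Its pseudogenes and those of Nanog and Dppa5a are near copies, and how the authors' counting shared such reads is uncertain. The most abundant member was Dppa5a, a KH-domain protein of embryonic stem cells, at 1045 to 1666 CPM against 51.0 to 152 in SSC1-4 and 101 to 393 in RPG1. Tdgf1, the Nodal co-receptor Cripto, was at 654 to 937 CPM against 0 to 41.2 and 32.3 to 139.5. Nr0b1 (Dax1), a repressor that binds Oct4, was at 162 to 385 CPM against 0 to 2.99 and 2.35 to 25.6. Per cell, in cells of at least 50000 UMIs, the 20 core genes summed to a median of 6457 CPM in RPG3, 5479 in RPG2, 3291 in RPG4, 1138 in RPG1 and 840 in SSC1-4 cells of libraries without RPG2, RPG3 or RPG4 cells. The 4 core genes that were not called in either comparison were Sall4, Lin28a, Trim71 and Jarid2.

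Naive factors were higher too, with 13 of 15 higher and 0 lower against both classes and medians of 2.99 and 3.08 on the log2 scale. Klf5, a Krüppel-like factor of naive cells, was at 166 to 373 CPM, with 0 to 46.2 in SSC1-4 and 7.67 to 27 in RPG1. Zfp42 (Rex1), the usual reporter of the naive state, was at 157 to 329 CPM, against 2.45 to 144 and 32.3 to 63.9. The orphan nuclear receptor gene Esrrb stood at 199 CPM on day 12, at 76.5 and 77.1 on day 18, at 67.6, 69.7 and 84.0 on day 20 and at 97.4 and 63.3 on day 23. Every value lay above the highest SSC1-4 (18.3) and RPG1 library (8.81). Klf2, a further Krüppel-like factor, ranged from 41.3 to 249 CPM, and Fgf4, the ligand by which pluripotent cells drive their own exit from the naive state, from 103 to 238 CPM against at most 3.37 in SSC1-4. Prdm14, which guards the naive state against FGF signalling, was low in the library sums, with 0.724 to 22.1 CPM and a median of 6.70. It was uneven among cells, at 0 in 171 of 254 RPG3 cells of at least 50000 UMIs and at most 150.5 CPM.

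The call of Klf4 rested on a single library. It stood at 252.5 CPM on day 12, where only 7 cells were summed, and at 41.3 to 60.2 in the other 7 libraries, still above SSC1-4 (4.89 to 34.9) and RPG1 (7.42 to 33.9). Its log2 difference of 1.98 ± 0.23 from SSC1-4 became 1.39 without the day 12 library and was no longer called, and that of 2.05 ± 0.42 from RPG1 became 1.41 and was not called either, both just under the threshold of 1.44. By total UMIs the lowest RPG3 library (36.4) lay beside the highest RPG1 library (36.7).

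Formative and primed epiblast genes split. Of 18 tested, 9 were higher and 2 lower than in SSC1-4, and 8 were higher and 1 lower than in RPG1, with medians of 2.08 and 1.46. The higher ones included Zic2 and Zic5, zinc-finger factors of the epiblast, with log2 differences of 5.63 ± 0.61 and 5.73 ± 0.35 from SSC1-4 and of 6.31 ± 0.56 and 4.73 ± 0.27 from RPG1. Fgf5, the classical marker of the post-implantation epiblast, was at 32.2 CPM on day 12, at 75.2 and 18.8 on day 18, at 48.5, 37.1 and 10.5 on day 20 and at 39.4 and 12.7 on day 23. It was at most 1.99 CPM in SSC1-4 and 4.32 in RPG1, below every RPG3 library, and the libraries of a single day differed widely. Dnmt3b, a de novo DNA methyltransferase, was at 365 to 620 CPM against 30.7 to 140 and 58.0 to 145. The members lower than in SSC1-4 were the SOX-family genes Sox3 and Sox4, and Sox4 was also lower than in RPG1, at 5.59 to 23.1 CPM against 29.2 to 76.1.

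Per cell, the naive and formative groups were measured as sums over the whole lists in the 254 RPG3 cells of at least 50000 UMIs, here not thinned and scaled by each cell's total UMIs. The 15 naive genes summed to a median of 1616 CPM (quartiles 1199 and 2016), against 367 in SSC1-4 cells of libraries without RPG2, RPG3 or RPG4 cells and 367 in RPG1. The sum was 1900 in RPG2, above RPG3, and 385 in RPG4. The 18 formative genes summed to a median of 1376 CPM (quartiles 975 and 2044), against 512 in those SSC1-4 cells and 572 in RPG1. This sum was 647 in RPG2 and 1941 in RPG4, so RPG3 lay between them for both groups.

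Within libraries the cell-by-cell Spearman correlation of the 2 sums was negative in each of the 7 libraries with at least 10 such cells, from -0.819 to -0.407 over 10 to 63 cells. This is a description over cells that share a library. With UMIs per cell the naive sum correlated from -0.36 to 0.376 and the formative sum from -0.394 to 0.467, and the signs were opposite in 6 of the 7 libraries. With UMIs per cell held constant, by a partial rank correlation added after the data had been seen, the correlation of the sums was -0.827 to -0.469, and in day 23 replicate 1 it moved from -0.648 to -0.581. The sum of the 20 core genes was lower in deeper cells of those libraries, with correlations with UMIs per cell from -0.839 to -0.0667. Otx2 read 0 in 8 of 254 cells and had quartiles of 66.8 and 291 CPM, whereas Fgf5 read 0 in 119 cells and reached 314 CPM.

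**Figure D3:**
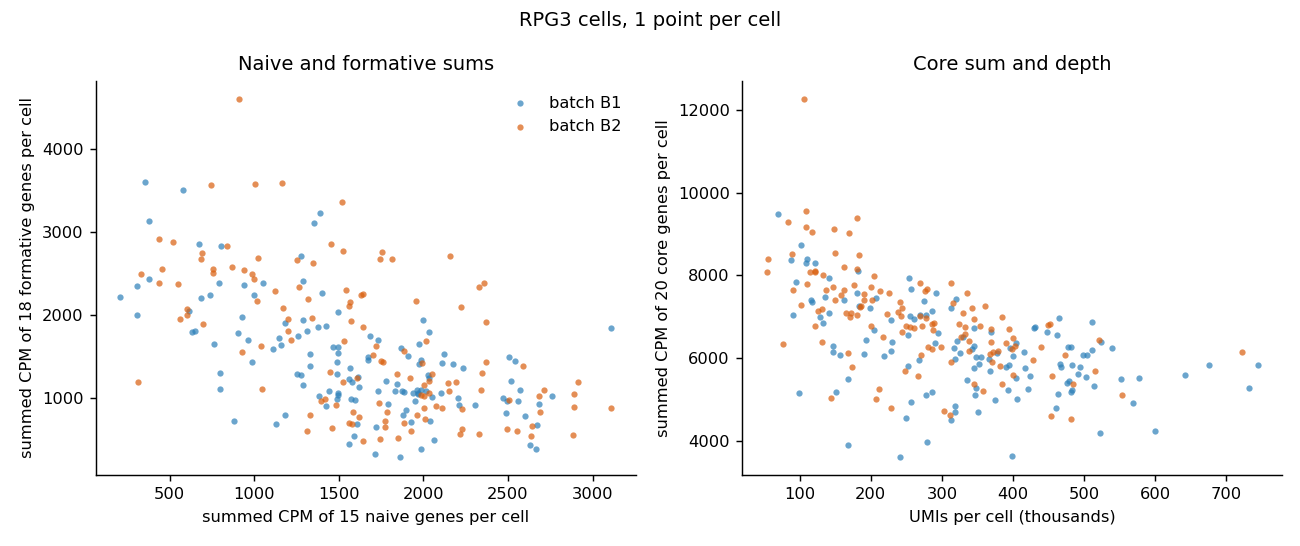
RPG3 cells of at least 50000 UMIs, 1 point per cell, coloured by batch. The left panel plots the summed CPM of the 18 formative genes against that of the 15 naive genes, with few cells high in both, and the right panel the summed CPM of the 20 core genes against UMIs per cell, which was lower in deeper cells.

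Most genes of primordial germ cells were higher than in SSC1-4 and RPG1, some were lower, and genes of later germ cells were mostly lower. Among 11 genes of primordial germ cells, 7 were higher and 2 lower than in both SSC1-4 and RPG1. The higher ones included Dppa3 (Stella), which protects maternal methylation marks in the early embryo, at 196 to 430 CPM against 19.6 to 212 in SSC1-4 and 28.7 to 78.3 in RPG1, and Ifitm3 (Fragilis), a membrane protein, at 418 to 778 CPM against 0 to 36 and 28.4 to 96.8. Dppa3 was not particular to RPG3, with a UMI in 94.9% of thinned RPG3 cells, 97.8% of RPG2 and 45.5% of RPG4 cells. A UMI of it was also found in 67.95% of RPG1 cells and 57.8% of SSC1-4 cells of the RPG3 libraries. In SSC1-4 cells of libraries without RPG2, RPG3 or RPG4 cells the share was 75.8%. The RPG3 and SSC1-4 library ranges of Dppa3 overlapped. The lower ones were the RNA-binding genes Nanos3 and Dnd1, which keep germ cells alive, with log2 differences of -3.63 ± 0.33 and -2.01 ± 0.15 from SSC1-4. Prdm1 (Blimp1), the inducer of the germ line, was at 3.62 to 21.3 CPM and higher by 1.58 ± 0.37 than SSC1-4, but the call ended without day 23 replicate 2 (1.40) and by total UMIs (1.32). In the 2 libraries shared with SSC1-4 the difference was -0.49 with the library as a replicate block.

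Among 26 genes of germ cell identity and differentiation, 23 were lower and 0 higher than in SSC1-4, and 20 were lower and 0 higher than in RPG1. Their sum was 515.5 to 1328 CPM in RPG3 against 4589 to 7927 and 4860 to 5228. Ddx4 (Vasa), the RNA helicase of germ granules, was at 20.3 to 95.7 CPM against 336 to 751 in SSC1-4. Sycp1, a component of the synaptonemal complex, was at 23.5 to 66.8 against 350 to 979, and the piRNA helicase gene Mov10l1 at 14.1 to 81.6 against 283 to 650. Per cell, the 28 genes of the whole list summed to a median of 525.97 CPM (quartiles 396 and 780) in RPG3, against 6104 in SSC1-4 cells of libraries without RPG2, RPG3 or RPG4 cells, 5312 in RPG1, 769 in RPG2 and 368 in RPG4.

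Of the 18 SSC self-renewal genes tested, 11 were lower than in SSC1-4 and 1 was higher. Both arms of the GDNF receptor were among the lower ones, with Ret at 6.33 to 26.8 CPM against 2.67 to 190 in SSC1-4 and 83.3 to 186 in RPG1, and Gfra1 at 0.497 to 8.31 against 0 to 54.2 and 21.9 to 45.0. Id4, an inhibitor of differentiation that marks the most primitive SSCs, was at 1.64 to 9.09 CPM against 0 to 44.0 and 12.7 to 32.7. For all 3 genes the RPG3 libraries overlapped those of SSC1-4 and lay below those of RPG1. The single higher gene was Etv5, an ETS factor downstream of GDNF and FGF, at 205 to 344 CPM against 9.41 to 159 in SSC1-4. It was not called against RPG1 (0.97 ± 0.13), where 10 of 17 tested genes were lower and 0 higher.

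**Figure D4:**
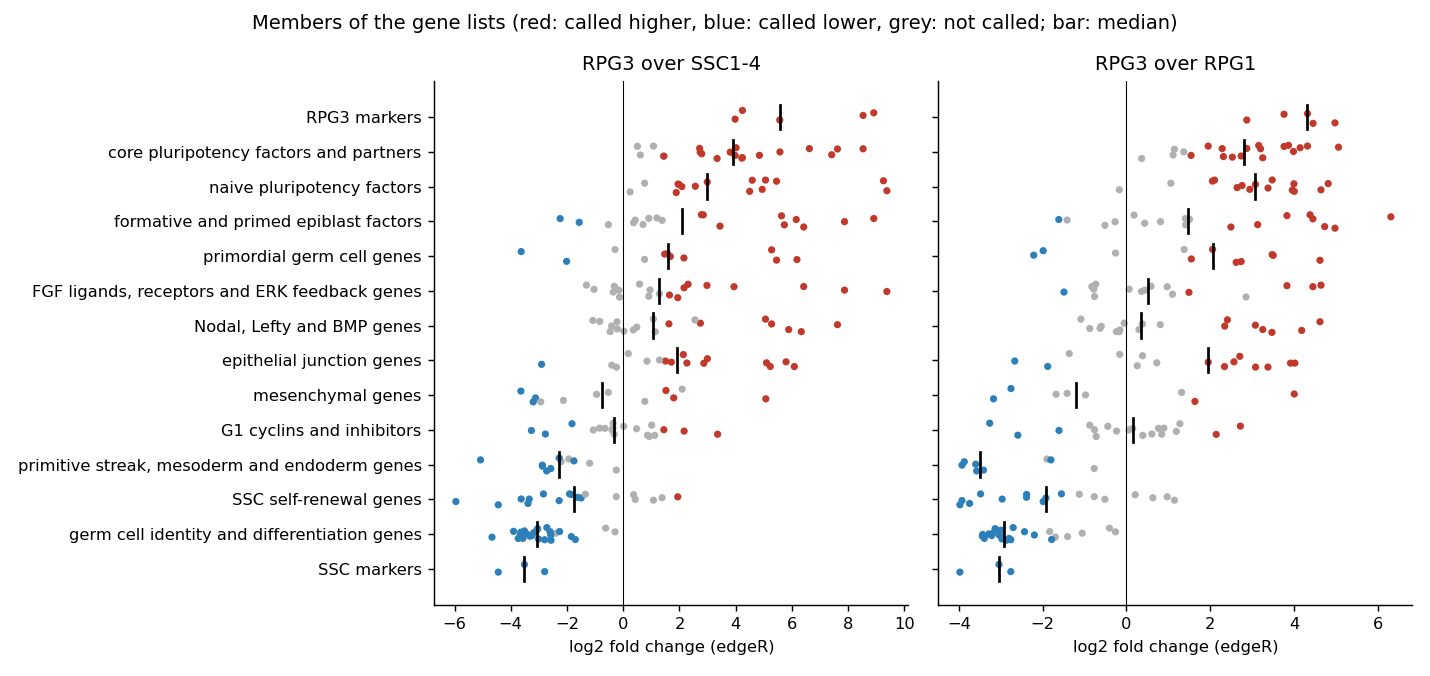
Log2 fold change of RPG3 over SSC1-4 (left) and over RPG1 (right) on the horizontal axes for each gene group, with 1 point per gene tested (red if higher, blue if lower, grey if not called) and a bar at the group median. Core and naive genes centre at 3.89 and 2.99 over SSC1-4, and germ cell identity genes at -3.06.

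Among signalling genes, ligands and feedback inhibitors were among the higher ones. Of 19 FGF and ERK genes, 9 were higher and 0 lower than in SSC1-4, and of 16 tested against RPG1, 4 were higher and 1 lower. The feedback inhibitor Spry2 was at 36.4 to 81.3 CPM against 1.87 to 27.9 in SSC1-4 and 12.8 to 34.4 in RPG1. Its call against RPG1 ended without any 1 of 4 libraries (log2 difference 1.41 to 1.44) and by total UMIs (1.30). Fgf15, a ligand of the early embryo, was at 16.8 to 86.8 against at most 1.31 and 4.58. In the Nodal and BMP group, 7 of 19 genes were higher and 0 lower than in SSC1-4, and 7 of 18 higher and 0 lower than in RPG1. These included the ligands Nodal (18.4 to 63.7 CPM, at most 5.6 and 9.71) and Bmp4 (37.9 to 178, at most 7.56 and 15) and the Nodal antagonist Lefty1 (3.50 to 52.9, at most 3.18 and 4.86). Lefty1 was uneven among cells, at 0 in 110 of 254 RPG3 cells with a median of 2.78 and a highest value of 632 CPM, and by total UMIs its lowest RPG3 library (3.18) lay beside the highest SSC1-4 library (3.21). Bmp4 and Nodal were uneven too, at 0 in 79 and 71 of the 254 cells, with highest values of 533 and 173 CPM. Lefty2, a further antagonist, measured 181 CPM on day 12, 71.4 and 177 on day 18, 27.6, 29.2 and 11.9 on day 20 and 114 and 59.5 on day 23.

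Genes of epithelial cells were higher in 10 and lower in 1 of 16 tested against SSC1-4, and higher in 8 and lower in 2 of 15 against RPG1. Cdh1, which encodes E-cadherin, was at 97.0 to 237 CPM against at most 9.43 in SSC1-4 and 20.0 in RPG1, and the tight-junction gene Cldn6 at 90.9 to 284 against at most 7.61 and 19.7. Ocln, the gene of the tight-junction protein occludin, was lower at 1.56 to 11 CPM against 13.4 to 127 and 21.9 to 44.3. The mesenchymal group split, with 3 higher and 3 lower of 12 against SSC1-4. Vim, the intermediate filament vimentin, was higher at 70.8 to 442 CPM against 0.125 to 28, and Snai1 and Twist1, repressors of E-cadherin, were lower with log2 differences of -3.12 ± 0.33 and -3.64 ± 0.46.

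Among 19 genes of the G1 phase, 3 were higher and 3 lower than in SSC1-4, beside 10.9% and 17.4% of all genes. Of the same 19, 2 were higher and 3 lower than in RPG1, beside 9.55% and 11.2%. These counts are near the shares of all genes, so the values below describe single genes and not the group. Ccne1 (cyclin E1) was at 281 to 439 CPM against 4.00 to 91.1 in SSC1-4 and 38.4 to 67.6 in RPG1. Ccnd2 (cyclin D2) was lower at 27.6 to 132 CPM against 215 to 695 and 531 to 637. The CDK inhibitor gene Cdkn1c was lower by -3.27 ± 0.44 than SSC1-4 on the log2 scale. Cdkn1a, the p53 target p21, was not called in either comparison (1.01 ± 0.28 and 0.84 ± 0.23).

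Markers of other cell types did not move one way. Of 11 primitive streak and mesendoderm genes tested, 0 were higher and 7 lower than in SSC1-4, and Foxa2 stood at 1.43 to 13 CPM in RPG3 against 39.4 to 80.9 in RPG1. The feeder fibroblast list summed to 11.2 to 47.4 CPM in RPG3, 13.5 to 173 in SSC1-4 and 34.3 to 67.4 in RPG1, with 0 of 12 tested genes higher and 4 lower than in SSC1-4. Primitive endoderm markers summed to 9.79 to 32.3 CPM, against 4.89 to 96.7 in SSC1-4 and 49.3 to 94.0 in RPG1. Trophectoderm markers summed to 23.2 to 54.4 CPM, reaching above SSC1-4 (1.21 to 45.5) and RPG1 (12.5 to 36.2). Cdx2, the defining factor of trophectoderm, was at 0 in all 8 RPG3 libraries, and Gata6, that of primitive endoderm, reached at most 0.129 CPM. Neural markers summed to 49.6 to 91.3 CPM, within the 41.3 to 129.5 of SSC1-4 and beside 58.7 to 121 in RPG1. Against SSC1-4, 0 of 6 primitive endoderm genes tested were higher and 2 lower, 2 of 6 trophectoderm genes were higher (Tead4 and Hand1) and 1 lower, and of 10 neural genes 2 were higher (Tubb3 and Neurod1) and 2 lower. Hand1 was not called without the library of day 23 replicate 2, with a log2 difference of 1.36. The 2-cell-stage genes, among them the Zscan4 family, summed to at most 6.08 CPM in RPG3, 18.9 in SSC1-4 and 131 in RPG1.

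Some genes were above all libraries of the 4 classes summed here. The ratio of the lowest RPG3 library to the highest library of SSC1-4, RPG1, RPG2 and RPG4 exceeded 1 for 57 of 7139 genes with a mean of at least 20 CPM in RPG3. It was largest for Lgals3 (galectin-3), at 81.1 CPM in the lowest RPG3 library and 24.4 in the highest other one, a ratio of 3.33, and next for Mcf2, a guanine nucleotide exchange factor gene, with 2.96. The others of the first 10 were Fez1, Ankrd35, Lrrc2, Hsf2bp, Fgf4, Sept1, Atp6v0a4 and Dnmt3l, with ratios from 2.94 down to 1.96. The ratio is one of library sums, and Lgals3 was uneven among cells. It was at 0 in 30 of 254 RPG3 cells of at least 50000 UMIs, with quartiles of 8.60 and 155 CPM. Dnmt3l, the cofactor of de novo methyltransferases, was at 506 CPM on day 12, at 418 and 624 on day 18, at 434, 560 and 534 on day 20 and at 459 and 566 on day 23, above the 213 CPM of the highest library of those 4 classes. The other annotated classes were not compared. The markers Otx2 and Dppa2 split the small classes. Otx2 was also high in RPG4 (105 to 112 CPM in 2 libraries) and stood at 0 to 6.96 CPM in the 3 RPG2 libraries. Dppa2 was high in RPG2 (187.5 to 329 CPM) and stood at 3.98 to 4.03 in RPG4.

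**Figure D5:**
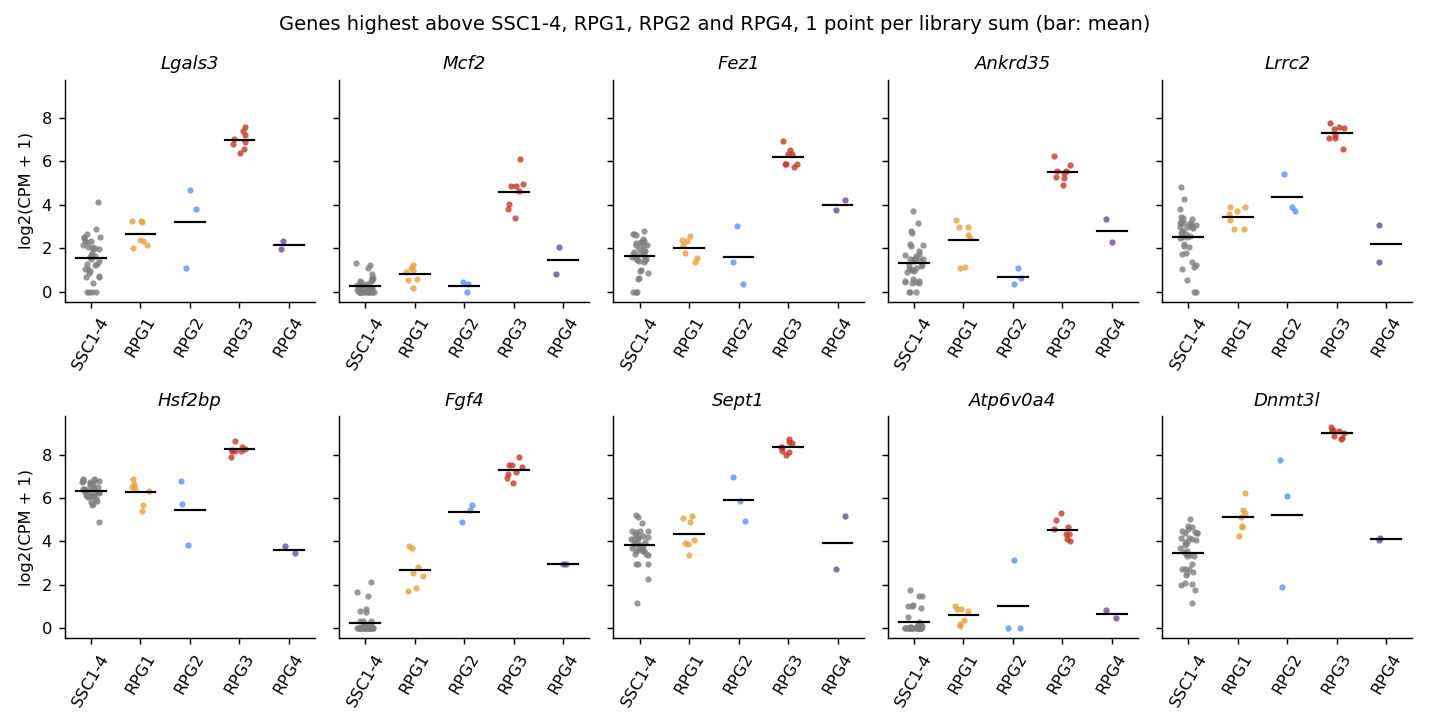
Level as log2(CPM + 1) on the vertical axis of the 10 genes with the largest ratio of the lowest RPG3 library to the highest library of SSC1-4, RPG1, RPG2 and RPG4, with 1 point per library sum and a bar at each class mean. For Lgals3 the lowest RPG3 library (81.1 CPM) lies above the highest other library (24.4 CPM).

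Genes were also ranked by size of difference among called genes without library overlap, with a mean of at least 20 CPM in the higher class and gene models left out. In this ranking the 10 genes most above SSC1-4 were Platr11, Fgf4, Nr0b1, Aoah, Etv1, Otx2, Platr7, Platr10, Gtsf1l and L1td1, with log2 differences from 10.06 ± 0.52 (Platr11, 6 UMIs in all SSC1-4 sums) to 8.53 ± 0.47. Platr7, Platr10 and Platr11 are long non-coding RNAs named for their association with pluripotency. Folds of genes near 0 CPM in SSC1-4 depend on the prior count of the fit. The 10 most below SSC1-4 in the same ranking were Npffr1, Asb9, Igfbp6, Rspo4, Stra8, Xlr5c, Rbm46, Shcbp1l, Rhox7b and Zbtb16, from -5.19 ± 0.43 to -4.45 ± 0.27. Among them Stra8, the retinoic acid target that precedes meiosis, was at 0 to 21.7 CPM against 23.2 to 275, and Rbm46, a germ cell RNA-binding gene, at 2.63 to 15.3 against 119 to 363.

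Against RPG1 the 10 most above by the same limits were Zic2, Laptm5, Atp6v0a4, Parvb, Zfp534, Etv1, Aoah, Rnd3, Mcf2 and Chrna9, from 6.31 ± 0.56 to 5.08 ± 0.50. The 10 most below were Tmc3, Igf2, Ccdc152, Fgf9, Usp9y, Xlr5c, Rhox7b, Ttll7, Lhx1os and Rhox2d, from -4.85 ± 0.58 to -4.17 ± 0.43. Igf2, the imprinted fetal growth factor gene, was at 0.853 to 13.7 CPM in RPG3 and at 37.1 to 138 in RPG1. Etv1 and Aoah were among the 10 in both comparisons above, and Xlr5c and Rhox7b in both below. Reads of Xlr5c, Rhox7b and Rhox2d may be shared with near copies in their families, and those of Lhx1os with its antisense partner Lhx1.

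The promoters of a few members are shown for the letters that Oct4 and OTX-type factors are known to bind. Windows of 300 bases (250 before to 50 after an annotated start) were taken from RefSeq on GRCm38.p6 and searched on both strands for ATGCAAA (reverse TTTGCAT), the core of the octamer, and for TAATCC (reverse GGATTA), the core bound by OTX-type homeodomains. The octamer core was present in 1514 of 32544 windows of all genes (4.65%) and the homeodomain core in 2298 (7.06%). Of 20 core genes 12 had a window, and Nanog and Sox2 held the octamer core. Of 15 naive genes 12 had a window, and Zfp42 held it. None of 10 formative genes with a window held it, and 1 of 23 germ cell identity genes did (Rhox13). The homeodomain core was in 3 of the 12 core genes (Nanog, Phc1 and Pou5f1), in 0 of the 12 naive genes, in 1 of the 10 formative genes (Otx2, where the match lies within annotated UTR exons of other Otx2 transcripts) and in 1 of the 23 germ cell identity genes (Rhox13). The 3 sequences below give the 250 bases before the start, read 5′ to 3′ on the gene's strand, with both cores in capitals, at chr6:122707239-122707488 (plus) for Nanog, chr3:34649745-34649994 (plus) for Sox2 and chr8:43307010-43307259 (minus) for Zfp42.
Nanog: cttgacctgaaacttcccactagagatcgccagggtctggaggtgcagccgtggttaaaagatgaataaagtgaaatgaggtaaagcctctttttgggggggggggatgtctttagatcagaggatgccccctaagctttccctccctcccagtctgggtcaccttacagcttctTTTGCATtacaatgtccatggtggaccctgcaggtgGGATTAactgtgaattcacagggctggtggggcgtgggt
Sox2: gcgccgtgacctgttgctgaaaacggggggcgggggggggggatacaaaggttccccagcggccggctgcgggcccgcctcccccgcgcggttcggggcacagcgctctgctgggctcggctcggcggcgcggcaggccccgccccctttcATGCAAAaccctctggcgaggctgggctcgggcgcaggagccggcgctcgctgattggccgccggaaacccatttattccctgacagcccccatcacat
Zfp42: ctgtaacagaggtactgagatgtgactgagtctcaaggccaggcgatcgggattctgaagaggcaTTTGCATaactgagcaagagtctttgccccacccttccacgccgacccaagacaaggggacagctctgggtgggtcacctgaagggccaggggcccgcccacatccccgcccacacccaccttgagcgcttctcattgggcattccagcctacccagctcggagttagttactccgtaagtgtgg
In Nanog the octamer core begins at position -75 from the start and the homeodomain core at -39, in Sox2 the octamer core begins at -99 and in Zfp42 at -185. Nanog has another annotated start, from which the same cores begin at -151 and -115. Of the RPG3 markers 4 of 5 had a window, Dppa2 being the exception. None of the 4 held the octamer core. A match describes the letters and is no evidence of binding.

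Within RPG3 the libraries of batch B2 (3 libraries, days 12 and 18) and batch B1 (5 libraries, days 20 and 23) were the only comparison that the annotation did not build in. edgeR's quasi-likelihood test called 0 of 13344 genes (0%), while 1640 (12.3%) had an unadjusted p under 0.05 and DESeq2 called 30. The batches were separate runs of SSC reprogramming, so this comparison sets a single run against another, and nothing states that the libraries within a run were separate cultures. The p-values thus measure the spread between libraries and not between runs. Nearest to a call were Anxa2 (annexin A2), lower in B2 at 6.30 to 61.2 CPM against 254 to 358 (log2 difference -2.89 ± 0.40, edgeR adjusted p = 0.0359), and Pcbp1, an RNA-binding protein gene, with 0.85 ± 0.13 (adjusted p = 0.0449).

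Besides edgeR's 0 calls, no member of any gene list described above was among the 30 genes called by DESeq2 or the 23 called by edgeR without the filter on low counts. Of the 20 core genes 6 had an unadjusted p under 0.05, of the 15 naive genes 3, of the 18 formative genes 4 and of the 26 germ cell identity genes 1, beside 12.3% of all genes. L1td1 averaged 651 CPM in B2 and 470 in B1 (0.46 ± 0.14, edgeR adjusted p = 0.230). Otx2 averaged 187 CPM in B2 and 257 in B1 (-0.45 ± 0.22, adjusted p = 0.428), and for Nanog the adjusted p was 0.999. Lefty2, at 71.4 to 181 CPM in B2 and 11.9 to 114 in B1, differed by 1.56 ± 0.50 (adjusted p = 0.247), with overlapping libraries.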

How the data were processed

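Single-cell transcriptomes of the original culture condition were measured by modified STRT-seq. Raw UMI counts, 1 table per library, are what the authors deposited. Per the paper's methods, barcodes and UMIs were extracted and molecules counted with UMI-tools, reads were aligned to mm10 with STAR 2.7.2b and assigned to genes with featureCounts 2.0.0, cells with fewer than 2000 genes or more than 5% mitochondrial reads were removed, and clusters were made with Seurat. The deposited annotation gave the cluster and batch of each cell. No doublet caller was run, since cells were picked by hand.

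The UMIs of all cells of a class in a library were added up where the class had 5 cells or more, which makes the library, not the cell, the replicate. Genes were fitted with edgeR 4.0.16 in R 4.3.3 (TMM, filterByExpr, glmQLFit and glmQLFTest), on sums of the 2 compared classes alone. Each SE was derived from the test, as the absolute log2 difference divided by the square root of its F, and is approximate. A call needed a p under 0.01 after Benjamini-Hochberg adjustment (two-sided) and a change past 1 on the natural-log scale. DESeq2 1.42.0 was an alternative. Library expression is given as CPM of the summed UMIs with TMM-scaled library sizes, and expression per cell as CPM of the cell's total UMIs. Library totals were 15975410 to 34609591 UMIs. Exact binomial intervals at 95% and limits from a count of 0 (3 counts) cover counting error only. Cells were thinned to 50000 UMIs by drawing UMIs without replacement. Python 3.11 (numpy 2.4.6, pandas 2.3.3, scipy 1.17.1) gave all other values. The scripts were tested on simulated data.

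The members and gene lists were chosen with earlier results of these data known. Genes were named if they were RPG3 or SSC markers, members of the lists described by their role, the 10 called genes in each direction with the largest fold among those without overlap of libraries and with a mean of at least 20 CPM in the higher class, gene models left out, or the 10 with the largest ratio of the lowest RPG3 library to the highest library of SSC1-4, RPG1, RPG2 and RPG4. Sums per cell run over whole lists and were chosen after the data had been seen. RPG3 and RPG1 sums of the same 7 libraries deviated together from their class means (correlations 0.136 to 0.37, each highest with its own library), so these libraries pair the sums, and a fit with the library as a replicate block was an alternative. Gene positions follow GENCODE vM21 (GRCm38) and promoters follow RefSeq (GRCm38.p6). Methylomes, gPSC and ESC libraries and the cells treated with compounds were not analysed here.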

Additional observations from a re-analysis of the deposited data

Results flagged for a closer look

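Of 258 sets of library values examined (a gene in the 8 RPG3 or 7 RPG1 libraries), 36 (14%) had 1 library that stood far from the others. Chance gives about 1 in 20 where libraries vary equally, which the sums of 7 to 65 cells in RPG3 need not do. In RPG3, 10 of these were the day 12 library, in which 7 cells were summed. It was the highest for Esrrb (199 CPM, others at most 97.4), Fn1 (448, others at most 241), Jarid2 (439), Klf4 (252), Mcf2 (68.5), Parvb (78.3), Spry4 (133), T (7.69) and Tfcp2l1 (155). Sox1, a neural progenitor gene, stood at 39.2 CPM there and at 0 in the other 7 libraries, and it was at 0 in 252 of 254 single cells.

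The day 23 replicate 2 library was highest for Fgf9 (3.35 CPM), Gfra1 (8.31), Hand1 (11.5), Mixl1 (3.75) and Prdm14 (22.1), and the day 20 replicate 8 library, with 10 cells, for Lhx1 (51.4, others at most 9.78), Sox3 (27.2) and Stra8 (21.7). Fgf15 was highest on day 18 in replicate 3 (86.8) and Tubb3 in replicate 5 (63.7).

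In RPG1, day 18 replicate 5 was highest for Bmp4 (15 CPM), Dnmt3l (74.8), Eif2s3y (152), Nanog (28.7), Prdm1 (6.64) and Tfcp2l1 (14) and lowest for Igf2 (37.1) and Rhox7b (6.35). Day 18 replicate 3 was highest for Foxa2 (80.9) and Sox2 (168), day 23 replicate 2 for Cldn7 (20.5), Parvb (1.79), Platr11 (1.92) and Stra8 (44.3), day 23 replicate 1 for Xist (3.0) and day 20 replicate 2 for Zic2 (0.56).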

How the results depend on the processing

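The counts of genes called between RPG3 and SSC1-4 (4634) and between RPG3 and RPG1 (2790) moved most with the threshold and with fewer libraries. With an adjusted p below 0.05 and no fold threshold they were 10146 and 6911. With batch B2 alone they were 1784 and 539, and with sums per batch and day 1824 against RPG1. In the 2 libraries shared with SSC1-4, 1743 genes were called with the library as a replicate block (983 higher, 760 lower) and 1180 without it. Against RPG1 the replicate block gave 3130 (1373 higher, 1757 lower). Fewer libraries entered the fits of B2 alone and of the shared libraries. The share of higher calls was 38.5% over SSC1-4 with all libraries, 56.0% with B2 alone and 56.4% with the block, and over RPG1 45.9% and 62.0% with B2 alone. With library sizes by total UMIs, added after the data had been seen, 4827 and 2888 genes were called, 30.8% and 37.1% of them higher. Leaving out 1 RPG3 library at a time gave 4437 to 4670 and 2620 to 2879 calls.

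Between B2 and B1 within RPG3, 0 calls became 2 at an adjusted p below 0.05 with no fold threshold, 30 with DESeq2, 23 without the filter on low counts and 1 with at least 10 cells per sum, and 0 to 7 when 1 library was left out. The 7 came without day 18 replicate 3, 2 without day 18 replicate 5 and 1 without day 12 replicate 2. The cause was not tested. A comparison within days held by both batches could not be run, because no day had RPG3 cells in both.

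Of the shares, that of day 12 replicate 2 was 43.8% of SSC and RPG cells only. Shares of RPG3 cells with a UMI moved with depth: thinned to 20000 UMIs and unthinned, Zbtb16 was found in 7.72% and 56.7%, Dazl in 74.1% and 99.2%, Dmrt1 in 25.5% and 86.2%, Otx2 in 82.6% and 95.8%, Dppa2 in 90.3% and 99.2%, and L1td1 unthinned in 100%.

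Of 128 named genes in the fit against SSC1-4, 85 kept their direction and their side of the threshold under all alternatives, and of 127 against RPG1, 67. Directions turned against SSC1-4 for Prdm1 (-0.49 with the replicate block, -0.41 without it), Zfy1 (-0.56 and -0.36), Ddx3y (-0.14 and -0.16), Eif2s3y (-0.39 and -0.40, -0.04 with at least 10 cells per sum, -0.09 with B1 alone and -0.12 by total UMIs) and T (0.25 against SSC2 alone), and against RPG1 with B1 alone for Sox3 (0.37) and Spry4 (-0.03). The cause was not tested. Leaving out 1 library ended the call of Klf4 (1.39 and 1.41 without day 12 replicate 2), of Spry2 against RPG1 (1.41 to 1.44 without day 18 replicate 3 or 5, day 20 replicate 2 or day 23 replicate 1) of Prdm1 and Hand1 against SSC1-4 (1.40 and 1.36 without day 23 replicate 2) and of Spry4 against SSC1-4 (1.40 without day 12 replicate 2). It also ended those of T and Trp53 against SSC1-4 without any 1 of 6 libraries each (-2.64 to -2.36, and 1.37 to 1.44) and of Asb9 against RPG1 without any 1 of 4 (-2.12 to -1.93). By total UMIs the calls of Prdm1 (1.32), Spry4 (1.42), Sparc (1.29) and Trp53 (1.22) against SSC1-4 and of Spry2 (1.30) and Sparc (1.43) against RPG1 ended.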

Other observations

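Y-linked genes differed unequally in RPG3, chosen here after their values were seen. Of 14 Y-linked genes tested against SSC1-4, 5 (35.7%) were lower and 0 higher, with a median log2 difference of -1.74, and of 8 tested against RPG1, 3 (37.5%) were lower and 0 higher, with a median of -0.59. Usp9y, a deubiquitinase gene, was at 0.355 to 5.79 CPM in RPG3, against 2.44 to 97.9 in SSC1-4 and 26.4 to 60.2 in RPG1 (log2 differences -4.80 ± 0.34 and -4.32 ± 0.42). Uba1y, a ubiquitin-activating enzyme gene, was at 1.78 to 7.69 CPM against 22 to 112 and 35.3 to 92.4, and Zfy2, a zinc-finger factor gene, at 0.396 to 1.74 against 0 to 35.6 and 5.2 to 22.7. In contrast, the housekeeping genes Ddx3y (15.3 to 66.6 CPM), Eif2s3y (84.5 to 210.5) and Uty (17.3 to 47.6) were present in every RPG3 library and were not called.

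On the X chromosome, Xist, the RNA that silences an X chromosome in female cells, was at 0 to 41.2 CPM in RPG3 with a median of 14.7, against 0 to 9.34 in SSC1-4 and 0.0655 to 3.0 in RPG1 (3.79 ± 0.53 and 3.93 ± 0.76). Of 549 X-linked genes tested against SSC1-4, 76 (13.8%) were higher and 150 (27.3%) lower in RPG3, and of 461 against RPG1, 62 (13.4%) were higher and 103 (22.3%) lower. Over all genes those shares were 10.9% and 17.4%, and 9.55% and 11.2%. These are descriptions of the class, as its cells were clustered on the same genes.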
